A study of Mus musculus with 8 samples.

Results

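The cytosolic heat shock system of the heart was examined through 10 genes, chosen by symbol: the small heat shock protein genes Hspb1, Cryab, Hspb6, Hspb7 and Hspb8, the co-chaperone gene Bag3, the inducible HSP70 genes Hspa1a and Hspa1b, the J-domain gene Dnajb1 and the transcription factor gene Hsf1. They are 10 of the 50599 gene records in each library, and all 10 passed the filter on low counts and had an adjusted p. RNA from whole hearts was sequenced in 8 libraries, each from 1 mouse of strain C57BL/6N, with 4 libraries labelled wildtype and 4 labelled Lrpprc knockout. By the study's methods all mice were males 12 weeks of age. The study describes its knockout as a Cre deletion of loxP-flanked Lrpprc in heart and skeletal muscle, because loss in the whole body is lethal to the embryo. Its controls for RNase footprinting carried the same flanked alleles without Cre. For the hearts sequenced here it says only that they were controls, so their exact genotype is not certain. The promoter that drives Cre was not given in the sources used here, nor were the cell types of the heart in which it acts. Lrpprc encodes a mitochondrial RNA-binding protein, and no member of the heat shock set is encoded in mitochondrial DNA.

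Small heat shock proteins bind unfolding proteins without using ATP and hold them in a soluble state, and several of them are abundant in cardiac muscle, where they sit on sarcomeres and intermediate filaments. HSP70 proteins refold or hand over such clients in cycles of ATP hydrolysis that are started by J-domain proteins such as DNAJB1 and ended by nucleotide exchange factors such as BAG3, which also joins HSP70 to HSPB8 for the selective autophagy of damaged filament proteins. HSF1 is the transcription factor that binds heat shock elements, repeats of the unit GAA in alternating orientation, upstream of many of these genes.

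The sequences before the start sites are given for Hspb1, whose count rose most among the members, and for Hspa1a and Hspa1b, whose near identity matters for how their counts can be read. Each is the 130 bases before the annotated start, 5′ to 3′ on the strand of the gene, from RefSeq (GRCm38.p6), and capitals mark each match to a heat shock element of 2 units, spelled GAANNTTC or TTCNNGAA. The windows are chr5:135887789-135887918 on the plus strand for Hspb1, chr17:34972157-34972286 on the minus strand for Hspa1a and chr17:34959239-34959368 on the minus strand for Hspa1b.
Hspb1: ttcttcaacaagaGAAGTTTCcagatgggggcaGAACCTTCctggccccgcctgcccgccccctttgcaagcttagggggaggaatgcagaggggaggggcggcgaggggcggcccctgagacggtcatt
Hspa1a: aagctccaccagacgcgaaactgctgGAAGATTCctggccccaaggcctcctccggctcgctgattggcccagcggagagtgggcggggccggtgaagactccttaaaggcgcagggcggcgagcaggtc
Hspa1b: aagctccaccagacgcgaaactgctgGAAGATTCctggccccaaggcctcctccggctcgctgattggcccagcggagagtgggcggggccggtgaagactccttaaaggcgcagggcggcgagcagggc

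Hspb1 held 2 matches, which begin at positions -117 and -97 counted back from the start. Hspa1a and Hspa1b each held 1 match at -104, and over the 250 bases searched before the start the 2 genes differed at 3 positions, 1 of them inside the printed window. RefSeq promoters were found for 8 of the 10 members, Cryab and Hsf1 being the others, and gave 10 start sites in all because Hspb6 and Dnajb1 have 2 each. A 2-unit match stood before 4 of these starts, in Hspb1, Hspa1a, Hspa1b and the second start of Hspb6 (at -120), and in 12.8% of the 32851 promoters of the whole table. No start of Hspb7, Hspb8, Bag3 or Dnajb1 had these letters in the 250 bases before it. A run of 3 units, which 0.466% of all promoters held, was found before none of them. Of the other motifs searched, CCAAT, on either strand, stood at -67 before both Hspa1a and Hspa1b, at -151 before 1 start of Dnajb1 and 4 times before the first start of Hspb6, and was present in 33.8% of all promoters. The letters TATAAA, on either strand, were found at -29 before the second start of Hspb6 only, against 12.4% of all promoters. These matches describe the letters and were not tested as binding sites.

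Library depth ranged from 35218541 to 47743376 expected counts in the wildtype and from 38128303 to 45062420 in the knockout. Mitochondrial rRNA took 44 to 46.9% of the counts in the wildtype and 65.6 to 67.8% in the knockout, so values below are counts normalised by median-of-ratios size factors. Values of single libraries are given throughout in the order of replicates 1 to 4. Lrpprc itself had 3607, 3946, 3424 and 3682 normalised counts in the wildtype and 597.4, 504.3, 605.4 and 600.8 in the knockout. The groups did not overlap, and the gene was low in the libraries labelled knockout, with a log2 fold change of -2.67 ± 0.10 (SE; DESeq2, adjusted p = 3.77e-153). The cardiomyocyte markers were present in every library, but their summed normalised count was 971300 to 1073000 in the wildtype and 511600 to 655800 in the knockout, with 1 of 7 higher and 5 of 7 lower. Of the other lists, smooth muscle had 3 of 5 markers lower (summed 7663 to 9523 in the wildtype and 2547 to 5233 in the knockout), atrial tissue 2 of 4 lower (9980 to 12040 and 1268 to 6012), macrophages 4 of 5 higher (summed 2266 to 2890 in the wildtype and 2573 to 6008 in the knockout) and fibroblasts 2 of 6 higher (11960 to 12470 and 12640 to 24160). None of 5 endothelial, 5 erythroid and 3 adipose markers was called in the reported fit or by edgeR, and at an unadjusted p under 0.05 DESeq2 had 1 endothelial marker higher and 2 lower and none of the others. These counts moved with single libraries and scalings: without knockout replicate 1, 4 erythroid markers were higher, 2 endothelial markers lower and 1 adipose marker lower, and under total counts without mitochondrial rRNA 3 erythroid and 3 endothelial markers were higher. The 3 smooth muscle calls became 5 without knockout replicate 3, and the 4 macrophage calls became 1 without knockout replicate 2, without knockout replicate 4 or under total counts, and 2 by edgeR or without wildtype replicate 1 or 2. Skeletal muscle markers were low, with sums of 20.63 to 31.77 and 9.304 to 45.38. In whole-heart RNA, fewer cells of a type and less RNA per cell cannot be told apart, and the part of these shifts in the results below was not tested.

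Among the 10 members, Hspb1 and Hspb8 rose, Hspa1a and Dnajb1 fell, and the other 6 did not pass the test (DESeq2 with Benjamini-Hochberg adjustment over all genes, threshold 0.05). The groups overlapped for Hspa1a, and its sum with the near-identical Hspa1b did not pass (DESeq2, adjusted p = 0.078). The background is wide: 18.2% of the 19959 genes tested were higher in the knockout and 15.5% were lower, so 2 of 10 in each direction is close to the share over all genes. The median log2 fold change was -0.06 over the members and 0.01 over all genes tested. All 4 knockout libraries lay above all 4 wildtype libraries for 2 members, against 16.7% of all genes tested, and below them for 1 member, against 16.4%.

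**Figure D1:**
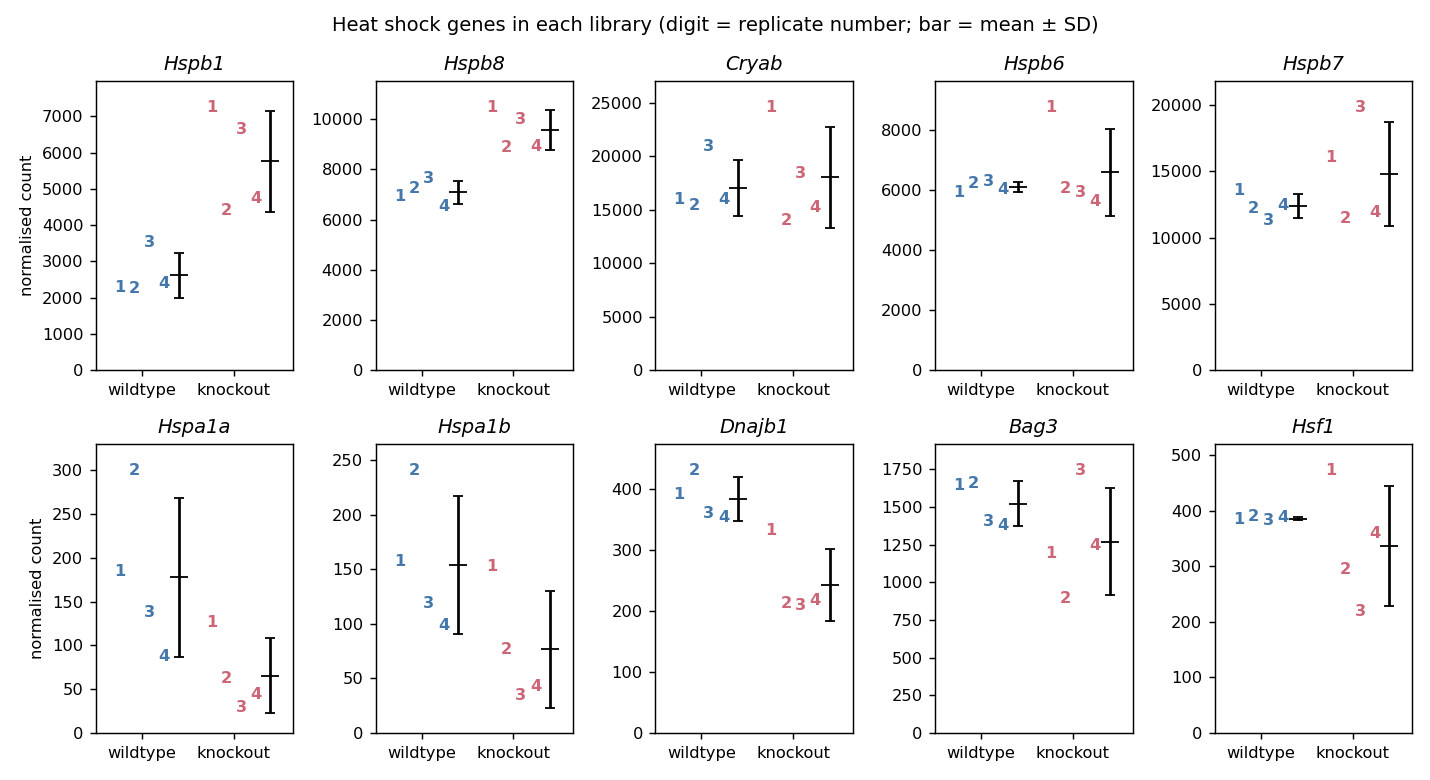
Normalised count (vertical axes from 0, each gene on its own scale) of the 10 genes in wildtype (blue) and knockout (red) libraries; each digit is 1 library, named by its replicate number, and the black bar is the mean ± SD of 4 libraries. Hspb1 and Hspb8 are higher in every knockout library than in any wildtype library, Dnajb1 is lower in every knockout library, and the groups overlap for the other 7.

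Hspb1 encodes HSP27 (HSP25 in the mouse), a small heat shock protein that binds actin and is phosphorylated under stress. The gene (ENSMUSG00000004951.10) is protein-coding and lies on chromosome 5 from 135887919 to 135889563 on the plus strand (GRCm38). Its normalised count was 2287, 2255, 3530 and 2393 in the wildtype libraries and 7250, 4409, 6645 and 4724 in the knockout libraries. The knockout libraries formed a higher and a lower pair, yet the lowest of them exceeded the highest wildtype library, replicate 3, which stood apart from the other 3. The mean rose 2.2-fold, from 2616 ± 612 to 5757 ± 1400 (SD, n = 4 each; log2 fold change 1.14 ± 0.20, SE; DESeq2, adjusted p = 3.13e-07). The call held in all 16 alternatives run, with log2 fold changes of 0.82 to 1.55 and adjusted p of 2.53e-14 to 0.00126. An annotated pseudogene, Hsp25-ps1, matched 630 bases of Hspb1 at 99.36% identity but had at most 4.32 expected counts in any library.

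Hspb8 encodes HSP22, the small heat shock protein that forms a stable complex with BAG3. It (ENSMUSG00000041548.4, chromosome 5 from 116408491 to 116422864, minus strand) had 6910, 7247, 7634 and 6539 normalised counts in the wildtype and 10470, 8883, 9970 and 8917 in the knockout. The groups did not overlap, and the range within each group was of about the size of the gap between them. The mean rose 1.35-fold, from 7083 ± 468 to 9560 ± 790 (SD, n = 4 each; log2 fold change 0.43 ± 0.10, SE; DESeq2, adjusted p = 5.13e-05). Scaling by total counts, mitochondrial rRNA included, ended this call (0.13, adjusted p = 0.264).

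Cryab encodes αB-crystallin, the chaperone of desmin filaments, and was the most abundant member. The gene (ENSMUSG00000032060.10, chromosome 9 from 50751325 to 50756636, plus strand) had 15920, 15410, 20880 and 15930 normalised counts in the wildtype and 24580, 14040, 18400 and 15180 in the knockout. Knockout replicate 1 was the highest of all 8 libraries, whereas knockout replicates 2 and 4 lay below every wildtype library. The means were 17030 ± 2580 and 18050 ± 4730 (SD, n = 4 each), and the log2 fold change was 0.08 ± 0.19 (SE; DESeq2, adjusted p = 0.778). It was -0.10 when knockout replicate 1 was left out, so its sign rested on that library. Its neighbour Hspb2 overlaps it on the opposite strand and was counted by strand.

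Hspb6, which encodes HSP20, and Hspb7, which encodes a small heat shock protein of cardiac and skeletal muscle, did not pass the test either. Hspb6 (ENSMUSG00000036854.14, chromosome 7 from 30552178 to 30555443, plus strand) had 5914, 6196, 6271 and 6006 normalised counts in the wildtype and 8744, 6041, 5904 and 5617 in the knockout. Its wildtype libraries were nearly equal, 2 of the 4 knockout libraries lay below all of them, and knockout replicate 1 stood far above. Its log2 fold change was 0.11 ± 0.15 (SE; DESeq2, adjusted p = 0.622) and -0.06 without that library. Hspb7 (ENSMUSG00000006221.7, chromosome 4 from 141420779 to 141425311, plus strand) had 13570, 12170, 11310 and 12430 normalised counts in the wildtype and 16010, 11420, 19810 and 11890 in the knockout. Here knockout replicates 1 and 3 were above every wildtype library and replicates 2 and 4 were within the wildtype range, with a log2 fold change of 0.26 ± 0.18 (SE; DESeq2, adjusted p = 0.275) that was 0.08 without knockout replicate 3. The sign of the fold change of Cryab, Hspb6 and Hspb7 turned under total-count scaling, and under total counts without mitochondrial rRNA all 3 passed the threshold as higher.

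The inducible HSP70 genes Hspa1a and Hspa1b are intronless neighbours on chromosome 17 that encode nearly the same protein, and their transcripts aligned over 2201 bases at 99.23% identity. RSEM divides reads that fit both, so the separate values are uncertain and the sum of the pair is given with them. Hspa1a (ENSMUSG00000091971.3, 34969190 to 34972156, minus strand) had 184.3, 300.1, 138 and 87.63 normalised counts in the wildtype and 126.1, 62.38, 28.82 and 44.2 in the knockout. The groups overlapped through knockout replicate 1, which exceeded wildtype replicate 4. The fall from 177.5 ± 90.7 to 65.38 ± 42.7 (SD, n = 4 each) passed the threshold (log2 fold change -1.44 ± 0.45, SE; DESeq2, adjusted p = 0.00553). It no longer passed without wildtype replicate 2, the highest library (-1.06, adjusted p = 0.0657), or under total counts without mitochondrial rRNA (-1.01, adjusted p = 0.0665).

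Hspa1b (ENSMUSG00000090877.3, 34956436 to 34959238, minus strand) had 156.8, 241, 118.9 and 98.08 normalised counts in the wildtype and 152.9, 76.24, 34.58 and 42.32 in the knockout. Knockout replicate 1 again lay within the wildtype range and the other 3 below it. The log2 fold change of -1.01 ± 0.44 (SE; DESeq2, adjusted p = 0.0602) lay just outside the threshold. It passed without knockout replicate 1 (-1.59, adjusted p = 0.000115) and without wildtype replicate 4 (-1.17, adjusted p = 0.0446), and under total-count scaling (-1.32, adjusted p = 0.00937). It also passed with a replicate block (-1.16, adjusted p = 0.00353). Under total counts without mitochondrial rRNA it was -0.57 (adjusted p = 0.326), and the weakest value with 1 library left out was -0.70. For the 2 genes summed, the normalised count was 339.1, 540.2, 255.5 and 186 in the wildtype and 279.8, 137.9, 63.54 and 87.37 in the knockout. Knockout replicate 1 lay above wildtype replicates 3 and 4, and the other 3 knockout libraries lay below every wildtype library. The sum had means of 330.2 ± 153 and 142.1 ± 96.8 (SD, n = 4 each) and did not pass the threshold (log2 fold change -1.22 ± 0.56, SE; DESeq2, adjusted p = 0.078).

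Dnajb1 encodes HSP40, the J-domain partner of inducible HSP70. It (ENSMUSG00000005483.10, chromosome 8 from 83608193 to 83612653, plus strand) had 391.9, 432, 359.9 and 354.8 normalised counts in the wildtype and 332, 213.3, 209.5 and 216.8 in the knockout. Knockout replicates 2 to 4 were almost equal, and replicate 1, apart from them, was still below every wildtype library. The mean fell from 384.6 ± 35.6 to 242.9 ± 59.5 (SD, n = 4 each), 1.58-fold (log2 fold change -0.66 ± 0.18, SE; DESeq2, adjusted p = 0.00116). Scaling by total counts without mitochondrial rRNA ended the call (-0.24, adjusted p = 0.315).

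Bag3, the co-chaperone that joins HSP70 to small heat shock proteins, had 1641, 1659, 1403 and 1380 normalised counts in the wildtype and 1194, 893, 1746 and 1245 in the knockout (ENSMUSG00000030847.8, chromosome 7 from 128523616 to 128546981, plus strand). Knockout replicate 3 was the highest of all 8 libraries and the other 3 knockout libraries lay below every wildtype library. The log2 fold change was -0.26 ± 0.19 (SE; DESeq2, adjusted p = 0.306). When knockout replicate 3 was left out it passed the threshold at -0.45 (adjusted p = 0.00381). Under total-count scaling it also passed as lower (-0.57, adjusted p = 0.00362), and under total counts without mitochondrial rRNA its sign turned (0.15, adjusted p = 0.513).

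Hsf1, the heat shock transcription factor gene, had 384.7, 389.1, 381.8 and 388.2 normalised counts in the wildtype and 473.4, 293.5, 219 and 359.2 in the knockout (ENSMUSG00000022556.9, chromosome 15 from 76477422 to 76501913, plus strand). The wildtype libraries differed by a factor of 1.02 from lowest to highest and the knockout libraries by 2.16, on both sides of the wildtype values. The log2 fold change was -0.20 ± 0.21 (SE; DESeq2, adjusted p = 0.514) and turned positive under total counts without mitochondrial rRNA. It was -0.40 without knockout replicate 1 (adjusted p = 0.0599) and -0.04 without knockout replicate 3 (adjusted p = 0.887).

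**Figure D2:**
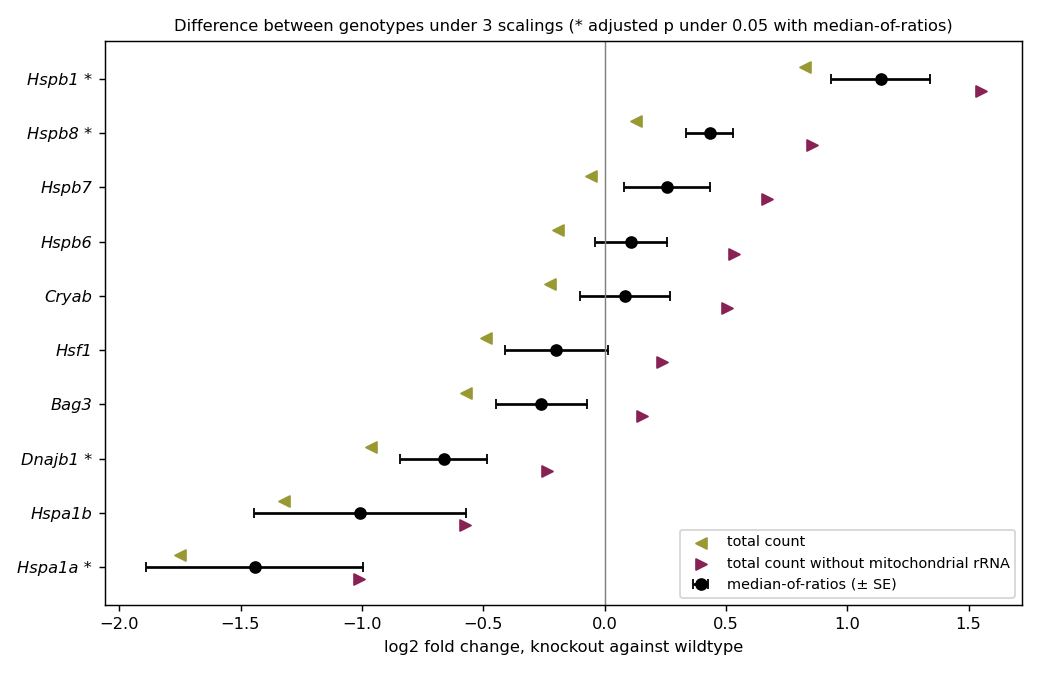
Log2 fold change of knockout against wildtype (horizontal axis) for the 10 genes: black points with bars are the values ± SE under median-of-ratios scaling, left-pointing triangles are total-count scaling and right-pointing triangles total counts without mitochondrial rRNA. Hspb1 is to the right of 0 and Hspa1a, Hspa1b and Dnajb1 to the left under all 3, while Cryab, Hspb6, Hspb7, Bag3 and Hsf1 lie on both sides of 0.

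The median log2 fold change of all genes was -0.29 under total-count scaling and 0.43 under total counts without mitochondrial rRNA. Relative to that median, Hspb8 stood at 0.42 under total counts, against 0.43 in the reported fit, and Dnajb1 stood at -0.67 without mitochondrial rRNA, as in the reported fit. A scaling moves all genes by nearly the same amount, so taking off the median returns the reported fit by construction and is no separate check. With all counts as the total, 1 member was higher and 4 were lower. Without mitochondrial rRNA 5 were higher and 0 lower by DESeq2, with 1 lower at an unadjusted p under 0.05, whereas edgeR with its own scaling gave 2 higher and 2 lower.

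On the scale of normalised counts per kilobase of effective length, which allows levels of different genes to be compared, the members spanned a wide range. In the wildtype, Cryab led at 25360 ± 3840, followed by Hspb6 at 5092 ± 138, Hspb7 at 4751 ± 358, Hspb8 at 4294 ± 284 and Hspb1 at 3547 ± 830 (SD, n = 4). Bag3 at 634.6 ± 62.5, Hsf1 at 208.3 ± 1.8 and Dnajb1 at 136.1 ± 12.6 came next, and Hspa1a at 63.36 ± 32.4 and Hspa1b at 58.28 ± 23.9 were lowest. The ranges of neighbours in this order overlapped in 4 of 9 pairs: those among Hspb6, Hspb7, Hspb8 and Hspb1, and Hspa1a with Hspa1b.

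In the knockout, Cryab was again first at 26880 ± 7040 per kilobase, and Hspb1 was second at 7806 ± 1900, ahead of Hspb8 at 5796 ± 479, Hspb7 at 5679 ± 1510 and Hspb6 at 5493 ± 1220 (SD, n = 4). Hspb1 thus held rank 5 in the wildtype and rank 2 in the knockout, although neighbours from Hspb1 to Hspb6 overlapped in range. By normalised counts without division by length Hspb1 held rank 5 in both genotypes. The less abundant members kept the order Bag3 at 529.8 ± 148, Hsf1 at 181.5 ± 58.2 and Dnajb1 at 85.96 ± 21, with Hspa1b at 29.01 ± 20.5 and Hspa1a at 23.34 ± 15.3 exchanged at the end.

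**Figure D3:**
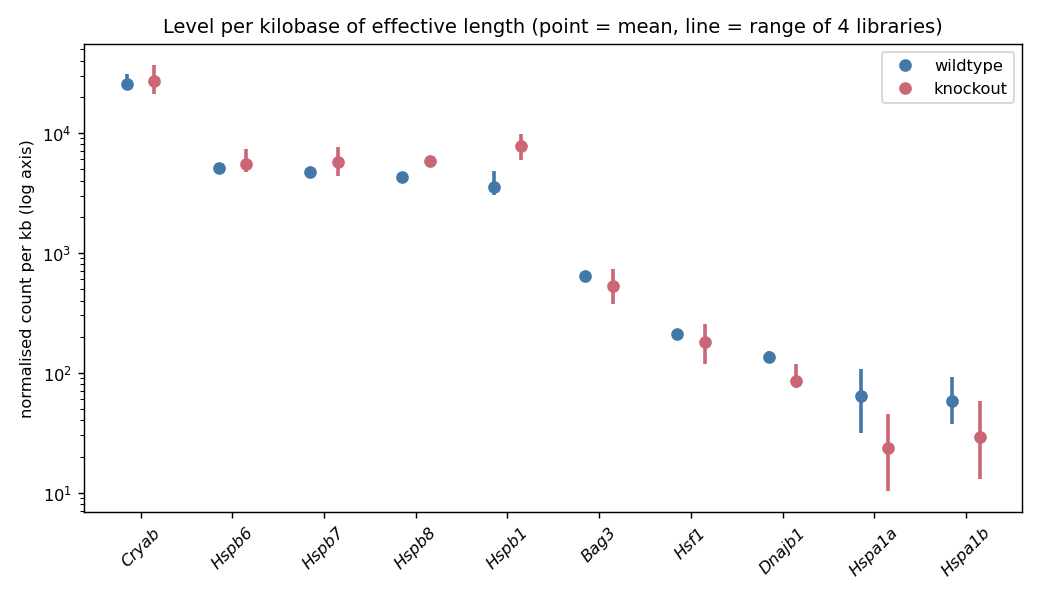
Normalised count per kilobase of effective length (vertical log axis) for the 10 genes in order of their wildtype level; points are means of 4 libraries and lines run from the lowest to the highest library, wildtype in blue and knockout in red. The 5 small heat shock protein genes sit above the other 5 in both genotypes, and Hspb1 moves from rank 5 to rank 2 on this scale.

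Because all small heat shock protein genes of the set are compared within a library, their proportions do not depend on the size factors. Of the summed level per kilobase of the 5, Hspb1 made up 7.54, 7.6, 9.56 and 7.97% in the wildtype libraries and 14.8, 14.3, 16.4 and 14.7% in the knockout libraries. Cryab made up 57.6, 57, 62.1 and 58.2% in the wildtype and 55.3, 50.1, 49.8 and 51.8% in the knockout. Both sets of shares separated the genotypes without overlap, while the mean share of Hspb7 was 11.2 ± 1.73% and 11 ± 1.96% (SD, n = 4). Shares of a sum depend on each other, so a higher share of Hspb1 lowers that of Cryab, which is no separate difference. The count of Cryab itself did not pass the test (DESeq2, adjusted p = 0.778). The ratio of Hspb1 to Cryab per kilobase was 0.131, 0.133, 0.154 and 0.137 in the wildtype and 0.269, 0.286, 0.329 and 0.283 in the knockout, and the ratio of Hspb8 to its partner Bag3 was 6.12, 6.35, 7.91 and 6.88 against 12.7, 14.5, 8.29 and 10.4. These ratios were chosen after the values were seen and are given as descriptions with no test.

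Libraries of 1 genotype differed in which members were high. Knockout replicate 1 was the highest knockout library for 8 of the 10 members, all but Hspb7 and Bag3, for which replicate 3 was highest. Knockout replicate 3 was in turn the lowest for Dnajb1, Hsf1, Hspa1a and Hspa1b, and replicate 2 was the lowest for 5 members. In the wildtype, replicate 2 was the highest for Bag3, Hsf1, Dnajb1, Hspa1a and Hspa1b and replicate 3 for Cryab, Hspb1, Hspb6 and Hspb8, while replicate 2 was the lowest for Cryab and Hspb1 and replicate 3 for Hsf1 and Hspb7. The highest library exceeded the lowest by a larger factor in the knockout than in the wildtype for all 10 members, as it did for 73.7% of the 17401 genes tested that had a count in every library. Over all genes, pairs of knockout libraries differed by a chi-square per degree of freedom of 14.7 to 52.9 and pairs of wildtype libraries by 4.65 to 10. That factor reached 4.42 in the knockout and 2.46 in the wildtype for Hspa1b, and was 1.18 and 1.17 for Hspb8.

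**Figure D4:**
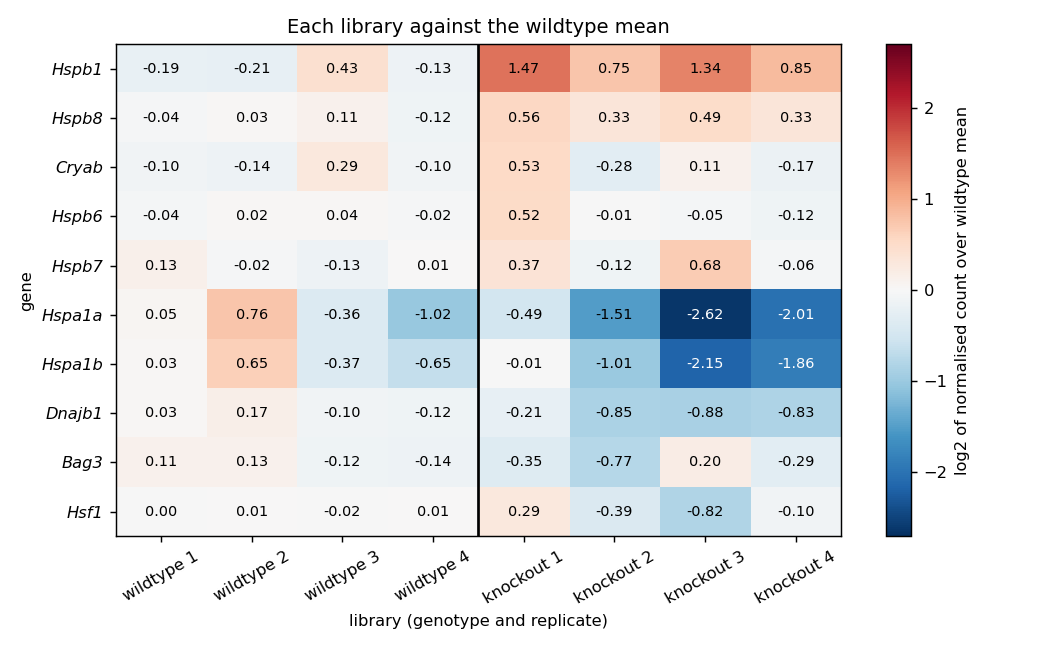
Log2 of the normalised count in each library over the mean of the 4 wildtype libraries (colour and printed value) for the 10 genes in rows and the 8 libraries in columns, wildtype left of the black line. Hspb1 is between 0.75 and 1.47 in all knockout libraries, and Hspa1a runs from -0.49 in knockout replicate 1 to -2.62 in knockout replicate 3.

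Immediate early genes, which respond quickly to stimuli and stress, were listed to describe this variation. Knockout replicate 1 was the highest knockout library for 10 of the 11, with 336.2 normalised counts of Fos against 75.2, 105.1 and 134.4 in knockout replicates 2 to 4. Wildtype replicate 3 was the highest wildtype library for 8 of the 11. In the comparison of genotypes 1 of the 11 was higher, Atf3 (2.84-fold, adjusted p = 2.1e-06), and 1 was lower (DESeq2). The counts were 2 higher and 5 lower without knockout replicate 1, 4 higher and 1 lower without wildtype replicate 3, and 1 higher and 0 lower by edgeR, with 2 lower at an unadjusted p under 0.05. None was called lower without knockout replicate 2, 3 or 4 or wildtype replicate 1 or 2. The part of this variation in the member values was not tested. Among the 8 fits that each left out 1 library, Hspb1, Hspb8 and Dnajb1 passed in all and Hspa1a in all but the fit without wildtype replicate 2.

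Other genes of the chaperone system were described in 10 lists that share some genes. Of the 75 genes listed, 72 were tested, and 36 of these (50.0%) were higher and 12 (16.7%) lower, beside 18.2% and 15.5% of all genes tested. The lists were chosen with earlier results of these data known and were not matched in level to all genes. These shares describe the lists, and the difference from all genes was not tested. Under total-count scaling 16 were higher and 25 lower, under total counts without mitochondrial rRNA 51 and 3, and by edgeR 32 and 12. Calls over all genes moved the same way, to 1924 higher and 5912 lower under total-count scaling and 7917 and 1103 without mitochondrial rRNA. The counts of single lists under these scalings, given below, are to be read beside that shift of all genes. With 1 library left out, 29 to 34 were higher and 8 to 13 lower, and the lower count was 8 without knockout replicate 4, wildtype replicate 3 or wildtype replicate 4. All 8 subunits of the TRiC chaperonin, the cytosolic ring that folds actin and tubulin, were higher in the knockout, with a median log2 fold change of 0.63. Cct3 rose by 0.86, Cct5 by 0.86 and Cct2 by 0.86 on the log2 scale (adjusted p = 6.21e-10, 1.67e-11 and 3.96e-07). Under total-count scaling 4 of the 8 were higher, and edgeR with its own scaling called 7.

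Among other small heat shock proteins, 1 of the 3 tested was higher (median 0.02). It was Hspb2, the head-to-head neighbour of Cryab, at 564.5 ± 40.4 in the wildtype and 788.8 ± 114 in the knockout (SD, n = 4 each; log2 fold change 0.48, adjusted p = 0.00131), a call that ended under total-count scaling. Cryaa, the α-crystallin of the lens, had no count in any library.

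Of other cytosolic HSP70 and HSP110 genes 4 of 9 were higher and 3 lower (median 0.18), against 1 and 4 under total counts. Without mitochondrial rRNA 5 were higher and none was called lower. Hspa4 and Hspa4l, which encode nucleotide exchange factors of the HSP110 family, rose by 0.76 and 0.50 on the log2 scale (adjusted p = 2.58e-12 and 0.00192), and the distant relative Hspa12b fell by 0.50 (adjusted p = 0.000367). Hspa4l was not called under total counts (adjusted p = 0.25), nor Hspa12b without mitochondrial rRNA (adjusted p = 0.715). The constitutive Hspa8 had 26630 ± 1280 normalised counts in the wildtype and 35790 ± 4530 in the knockout (log2 fold change 0.43, adjusted p = 0.000691), while the stress-inducible Hsph1, like Hspa1b, did not pass (-1.01, adjusted p = 0.103). Under total-count scaling Hspa8 was not called (0.12, adjusted p = 0.321) and Hsph1 was (-1.30, adjusted p = 0.0252), and Hsph1 also passed without knockout replicate 1 (-1.55, adjusted p = 3.58e-07). Hspa8 and Hsph1 were named after their values were seen.

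For HSP90 and its co-chaperones, 4 of 15 were higher and 3 lower (median 0.01), against 3 and 8 under total counts and 10 and 1 without mitochondrial rRNA. Hsp90aa1, the inducible HSP90, rose from 3223 ± 728 to 5899 ± 1360 (SD, n = 4 each; log2 fold change 0.87, adjusted p = 6e-05), as did Sugt1, a co-chaperone (1.11, adjusted p = 1.48e-25). Fkbp4, an immunophilin that guides steroid receptors, fell from 4884 ± 288 to 1580 ± 739 (-1.63, adjusted p = 2.3e-09).

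Of other cytosolic J-domain genes 6 of 10 were higher and 2 lower (median 0.32), with Dnajc2 at 1.11, Dnaja2 at 0.68 and Dnajb5, a close paralogue of Dnajb1, at -0.63 (adjusted p = 5.75e-21, 6.87e-10 and 0.000592). Of other BAG proteins and HSP70 co-factors 5 of 8 were higher (median 0.35), with Hspbp1 at 0.68, Bag2 at 0.55 and St13 at 0.37 the highest among calls without overlap between the groups (adjusted p = 1.27e-08, 0.00144 and 0.00208). Total-count scaling left 2 higher and 3 lower in the first of these lists and 1 higher and 2 lower in the second, where it ended the calls of Bag2 and St13. Without mitochondrial rRNA the J-domain list had 7 higher and none called lower, and Dnajb5 was not called (-0.21, adjusted p = 0.318). Leaving out any library but knockout replicate 1 left 1 J-domain gene lower. The call of St13 also ended without the length offset (0.22, adjusted p = 0.0699). In the list of BAG proteins 3 were higher by edgeR and without knockout replicate 3, knockout replicate 4, wildtype replicate 1 or wildtype replicate 4.

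Other heat shock factors and their regulators gave 2 of 5 higher and 1 lower (median 0.40): Hsf4 at 1.24, Hsf2 at 0.40 and Hsbp1l1, a paralogue of an HSF1-binding protein, at -2.03 (adjusted p = 0.00169, 0.0294 and 0.00036). Hsbp1l1 was near the floor, with 2 to 9 expected counts in the knockout libraries and 22 to 29 in the wildtype. The call of Hsf2 ended under total-count scaling (0.09, adjusted p = 0.65), without knockout replicate 3 (0.29, adjusted p = 0.0861) and without wildtype replicates 1, 3 and 4. That call also ended with a replicate block (0.395, adjusted p = 0.0712). Heat-inducible HSF1 targets outside the set gave 6 of 14 higher and 3 lower (median 0.09), with Fkbp4, Hsp90aa1 and Hspe1, the mitochondrial co-chaperonin (0.65, adjusted p = 0.000851), the 3 largest calls without overlap between the groups. Under total-count scaling Hspe1 was not called (adjusted p = 0.0572), 1 of these 14 was higher and 7 were lower, and without mitochondrial rRNA 9 were higher and 1 lower. The 3 lower became 1 without knockout replicate 4, wildtype replicate 3 or wildtype replicate 4, and 4 were higher without wildtype replicate 4, the fewest among the libraries left out.

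Among BAG3 partners and clients of small heat shock proteins, 3 of 9 were higher and 2 lower (median -0.03), against 3 and 5 under total counts and 5 and 1 without mitochondrial rRNA. Sqstm1, which encodes the autophagy receptor p62, had 4300, 3881, 4758 and 4397 normalised counts in the wildtype and 16780, 16980, 24650 and 18340 in the knockout, a log2 fold change of 2.15 (adjusted p = 8.77e-48). Flnc, the filamin that BAG3 delivers to autophagy, rose by 1.35 (adjusted p = 2.35e-15), and Synpo2, a BAG3 partner at the Z-disc, fell by 1.53 (adjusted p = 2.1e-20), both on the log2 scale. The related chaperones of mitochondria and the endoplasmic reticulum gave 3 of 6 higher and 1 lower (median 0.26), with Hspa9, the mitochondrial HSP70, at 0.97 and Hspd1, the mitochondrial chaperonin, at 0.45 (adjusted p = 9.27e-23 and 0.0114). Under total-count scaling Hspd1 was not called (0.14, adjusted p = 0.407) and the list had 1 higher and 2 lower, and without mitochondrial rRNA it had 5 higher and none called lower. With 1 library left out, the lower count was 1 without wildtype replicate 2, 2 without knockout replicate 3 and 0 in the other 6 fits (DESeq2). The higher count was 2 without wildtype replicate 4.

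**Figure D5:**
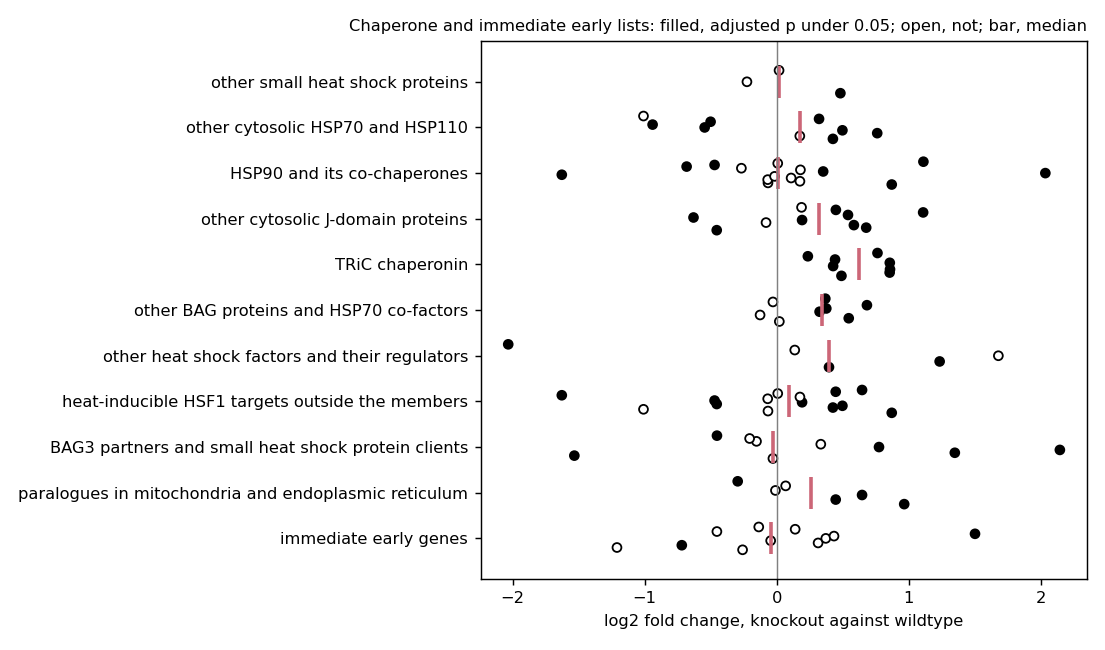
Log2 fold change of knockout against wildtype (horizontal axis) of every gene tested in the 10 lists of the chaperone system and in the immediate early genes; filled points passed the test (DESeq2, adjusted p under 0.05), open points did not, and the red bar is the median of a list. All 8 TRiC genes lie to the right of 0, and under this scaling the HSP70, HSP90 and HSF1-target lists hold filled points on both sides.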

How the data were processed

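Total RNA of whole hearts was sequenced as paired-end, reverse-stranded libraries after depletion of cytoplasmic rRNA. The authors made the deposited expected counts with RSEM 1.2.31 and Bowtie2 (mouse build mm10) against GENCODE transcripts to which they added mitochondrial sequences, and RSEM divides reads that match several genes. The deposited effective lengths, in bases, are other values by the authors. Their table of normalised counts, whose 8 columns match no sample label, and their table of fold changes and p-values were not used. Samples were grouped by title.

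Expected counts were rounded and fitted with DESeq2 1.42.0 in R 4.3.3 with a single term for genotype over the 8 libraries. Size factors were medians of ratios, and effective lengths entered as an offset. No shrinkage was applied. Benjamini-Hochberg adjustment ran over all genes, and 0.05 was the threshold. Symbols and GRCm38 positions came from GENCODE release 21 for mouse and matched 50339 of 50563 Ensembl identifiers. Near-identical transcripts were sought with BLAST 2.17.0 at 95% identity over at least 200 bases. The alternatives were edgeR 4.0.16, a fit without the length offset, a filter that required 10 counts in 4 libraries, 3 other scalings, a replicate block, leaving out each library, and Hspa1a and Hspa1b summed. The fits were tested on simulated data whose spread came from the wildtype libraries only. That test could not show how they do at the larger spread of the knockout libraries. The members and lists were chosen with earlier results of these data known. Named genes were the members, Lrpprc and, in each list, the 3 largest changes past the threshold without overlap between groups. Values of Hspa8, Hsph1 and Fos were given outside this rule.

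Depth was 35218541 to 47743376 counts per library. Chi-square per degree of freedom between replicates was at least 4.65, so each library counted as 1 replicate. Each library came from 1 mouse. The p-values set the difference between genotypes against a spread between mice that is estimated once per gene for both genotypes. The knockout libraries varied more, with a chi-square per degree of freedom of 14.7 to 52.9 against 4.65 to 10 in the wildtype.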

Additional observations from a re-analysis of the deposited data

Results flagged for a closer look

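In groups of 4 libraries, a library was flagged when its gap to the nearest other exceeded Dixon's critical share of the group's range. Of 74 groups of a named gene and genotype examined, 8 were flagged, and chance flags about 3.7. Genes given outside the naming rule were not examined.

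Knockout replicate 1 stood apart for Hspb6, at 8744 normalised counts against 5617 to 6041 in the other 3 knockout libraries, for Dnajb1, at 332 against 209.5 to 216.8, and for Dnajc2, at 653 against 739.1 to 744.4. Wildtype replicate 3 stood apart for Hspb1, at 3530 against 2255 to 2393, and for Cryab, at 20880 against 15410 to 15930. Knockout replicate 3 was high for Hsf4, at 140.4 against 53.43 to 65.66, and for Hsf2, at 506.2 against 378.3 to 392.2. Knockout replicate 2 was low for Lrpprc, at 504.3 against 597.4 to 605.4.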

How the results depend on the processing

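The counts of 2 members higher and 2 lower became 1 and 4 under total-count scaling and 5 and 0 under total counts without mitochondrial rRNA. With Hspa1a and Hspa1b summed, 1 was lower. Leaving out 1 library gave 1 to 3 lower, with 1 without wildtype replicate 2. Calls over all genes were 3628 higher and 3100 lower in the reported fit, 1924 and 5912 under total counts and 7917 and 1103 without mitochondrial rRNA. The sign turned for Cryab (-0.225), Hspb6 (-0.193) and Hspb7 (-0.0574) under total counts and for Bag3 (0.153) and Hsf1 (0.236) without mitochondrial rRNA. Relative to the median of all genes under each scaling none of these 5 turned. A scaling moves all genes by nearly the same amount, so this was fixed in advance and is no separate check. Over libraries left out, Cryab ran from -0.1 to 0.195 and Hspb6 from -0.0575 to 0.179, negative without knockout replicate 1. Without division by length, 7 of 10 members held their rank in the wildtype and 7 in the knockout, and Hspb1 was at rank 5 in both. Replicate numbers did not pair the libraries (correlations of -0.0735 to 0.0723), and a replicate block gave 5496 calls in place of 6728 and brought Hspa1b past the threshold (-1.16, adjusted p = 0.00353), while Hsf2 was not called (0.395, adjusted p = 0.0712). With about 25 to 310 expected counts of Hspa1a, counting error is larger there than for the abundant members.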
